A study of Homo sapiens with 2 samples.

Results

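The genes described here encode proteases that cut the extracellular matrix or cell surface proteins, together with their inhibitors and activators, in HEC1A, an established human endometrial adenocarcinoma line. They were chosen by name as 37 genes, with earlier results of these data known. Of these, 36 had a probe set annotated with that symbol alone, out of 19775 genes read in the same way. SERPINB2 is not analysed here. The study set HEC1A cells that overexpress EMP2, epithelial membrane protein 2, a small tetraspan membrane protein, against HEC1A cells carrying a short hairpin RNA vector for EMP2 knockdown. Each state was read on 1 Affymetrix array of biotin-labelled total RNA, from untreated cells grown in McCoys medium with fetal bovine serum. The labels name neither the promoters of the vectors nor the number of clones, and an unmodified HEC1A array is not analysed here. Whether the gain or the loss of EMP2 goes with a difference therefore cannot be told apart. There is no replicate of either state, so no difference below has a spread to be set against and none carries a p-value. All differences are log2 values in overexpression minus those in knockdown.

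Matrix metalloproteinases (MMPs) are zinc enzymes made with a propeptide that keeps them inactive until it is removed, some of them secreted and others held in the plasma membrane. ADAM proteases sit in the membrane and release growth factors, adhesion molecules and receptors from the cell surface, and the secreted ADAMTS proteases cut procollagens and proteoglycans. Serine proteases such as urokinase convert plasminogen to plasmin or act at the epithelial surface, proprotein convertases such as furin remove propeptides, and TIMPs and RECK restrain the metalloproteinases. In the endometrium, MMPs and TIMPs are known for the breakdown and repair of the lining in the menstrual cycle.

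Stretches next to the start sites of 5 genes are shown because their genes stand on different sides of the results below, MMP7 and MMP10 in a cluster that was at or near background and ADAMTS3, ADAM17 and RECK with probe sets higher in overexpression. Each is the 120 bases before the RefSeq start in GRCh38.p14, read in the gene's direction. An entry in the promoter table was present for 23 of the 36 genes. ADAMTS15, TIMP2, ADAMTS8, TMPRSS4 and PLAT had none, nor had MMP1, MMP2 and MMP13. The 5 stretches therefore do not represent either side of the results. Capitals mark TGANTCA (the AP-1 element allowing any base at its centre), TATAAA (the TATA box) and GGGCGG (the GC box), searched on both strands, so that CCGCCC is a GC box on the opposite strand. The first pair lie on the minus strand of chromosome 11, MMP7 at chr11:102530748-102530867 and MMP10 at chr11:102780629-102780748. ADAMTS3 lies at chr4:72569222-72569341 (minus strand), ADAM17 at chr2:9555831-9555950 (minus strand) and RECK at chr9:36036793-36036912 (plus strand).
MMP7: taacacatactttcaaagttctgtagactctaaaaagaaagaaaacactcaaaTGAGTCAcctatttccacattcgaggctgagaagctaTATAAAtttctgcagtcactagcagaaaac
MMP10: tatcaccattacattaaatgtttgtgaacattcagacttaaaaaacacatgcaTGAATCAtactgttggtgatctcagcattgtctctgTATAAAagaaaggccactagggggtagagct
ADAMTS3: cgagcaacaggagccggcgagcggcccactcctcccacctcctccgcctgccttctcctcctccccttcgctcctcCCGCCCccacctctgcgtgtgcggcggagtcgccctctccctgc
ADAM17: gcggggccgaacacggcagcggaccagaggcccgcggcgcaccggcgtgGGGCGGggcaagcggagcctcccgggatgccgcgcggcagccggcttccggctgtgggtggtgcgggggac
RECK: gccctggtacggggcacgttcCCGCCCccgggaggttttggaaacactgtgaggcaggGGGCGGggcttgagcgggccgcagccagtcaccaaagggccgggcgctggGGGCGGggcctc

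In MMP7 and MMP10 the TGANTCA match begins 67 bases before the start in both, and a TATAAA match begins 30 and 31 bases before it. Over the 250 bases before the start, 17 of the 23 genes held GGGCGG, 3 held TGANTCA and 2 held TATAAA. The same windows of all 27305 promoters in the table held these in 42.3%, 6.60% and 11.1% of cases. The third gene with TGANTCA was PLAUR. These 250 bases were 33.6% and 34.4% G or C in MMP7 and MMP10, against 75.2% in ADAMTS3, 75.6% in ADAM17 and 63.6% in RECK. The median was 58.0% over all promoters and 72.8% over the 22 members above background on at least 1 array, MMP7 among them. The values for all promoters were not restricted to genes above background, so these medians are of unlike sets. Among genes past the brightness filter and under 1.5-fold, FURIN had 80.8% and PLAU 46.8%. A match describes the letters and does not show that a factor binds there.

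EMP2 itself was past 1.5-fold on 1 of its 4 probe sets, the brightest, with 12.25 in overexpressing cells and 9.51 in knockdown cells. The others differed by 0.39, 0.23 and 0.00. The epithelial identity of HEC1A was visible on both arrays, where all 8 epithelial markers, among them EPCAM and PAX8, passed the brightness filter. Of these 8, CDH1 was past 1.5-fold on the side of overexpression, with a difference of 1.08, and KRT19 and KRT8 on the side of knockdown, with -0.97 and -0.77. Of 10 fibroblast markers 5, of 10 endothelial markers 7 and of 8 leukocyte markers measured 4 were not above background on either array. The mean level of the fibroblast markers was 5.65 in overexpression and 5.59 in knockdown, and THY1 alone of them was past 1.5-fold, higher by 0.70. The part of other cell types in the results was not tested. Of the 54675 probe sets, 14.6% held the identical value on both arrays, and the 18 hybridization controls differed by at most 0.10.

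Expression of the protease genes differed in few members, and those differences lay mostly on the side of overexpression. Of the 36 genes, 27 passed the brightness filter, a log2 value of at least 6.40 on the higher array, and 32 exceeded the background level of 5.85 on at least 1 array. Among the 27, overexpression was higher by 1.5-fold or more in 5 genes, where 4.97% of all 12061 genes past the filter were. They were ADAMTS3, ADAMTS15, TIMP2, ADAMTS8 and ADAM17. Only TMPRSS4 was at least 1.5-fold lower, where 4.15% of all genes were. The other 21 differed by less than 1.5-fold. ADAMTS8 and TMPRSS4 passed the filter only through the array on which they were higher. The median difference of the 27 genes was 0.20, and that of all genes past the filter was 0.00. In all, 16 of the 27 were above 0, 8 were below it and 3 held the identical value on both arrays, against 5496, 5989 and 576 of the 12061. Without the filter, PLAT joined the higher genes, giving 6 of 36 higher and 1 of 36 lower, beside 3.40% and 2.89% of all 19775 genes. At 2-fold, 2 of the 27 were higher and 0 lower, beside 1.65% and 1.53% of all genes past the filter. Since the members were chosen with earlier results of these data known, the shares of all genes are given for the setting only.

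**Figure D1:**
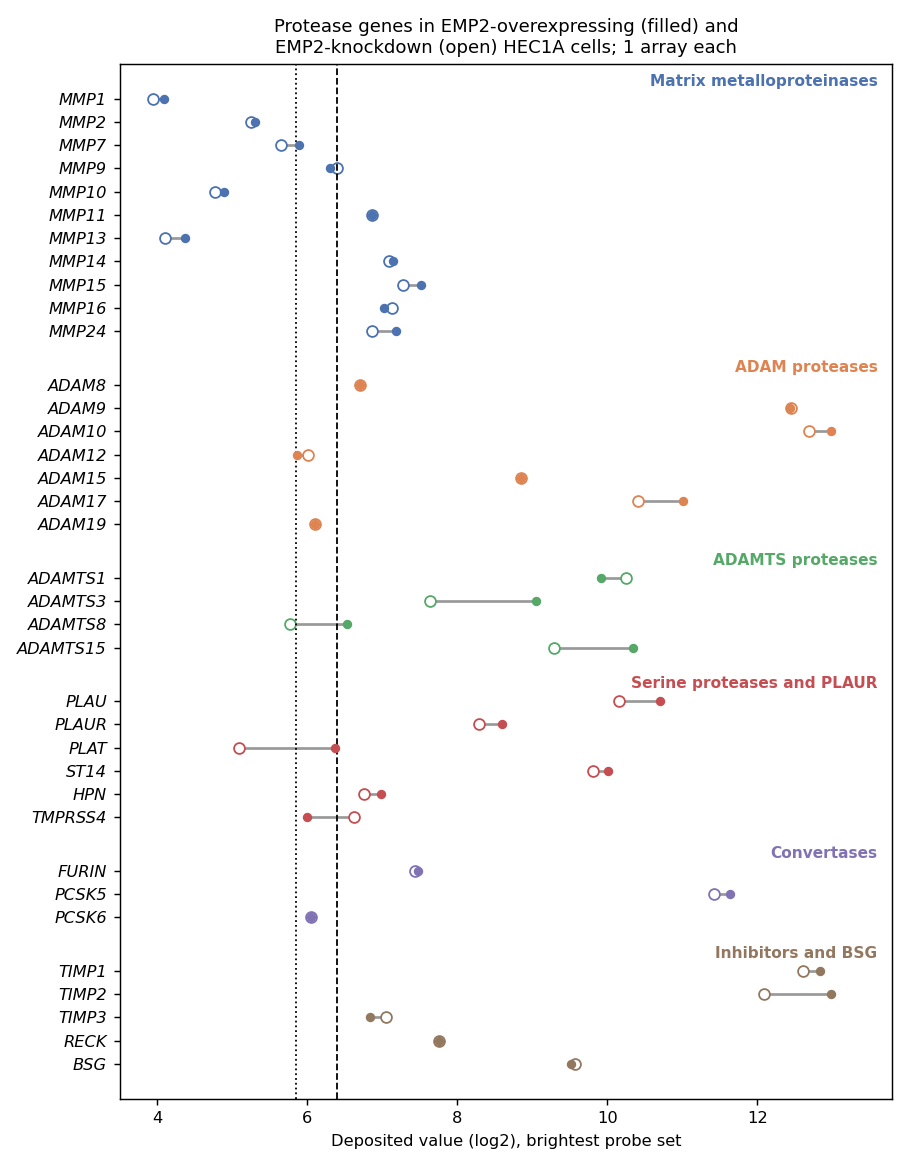
Deposited log2 values of the 36 genes on their brightest probe sets, in EMP2-overexpressing (filled) and EMP2-knockdown (open) HEC1A cells, 1 array each, grouped by role. The dotted line is the background level (5.85) and the dashed line the brightness filter (6.40). Most pairs lie close together, and the widest are those of ADAMTS3, PLAT, ADAMTS15 and TIMP2.

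The filter was passed by 6 of the 11 MMPs, and 0 of these were 1.5-fold apart in either direction. Of all genes past it, 4.97% were higher by as much and 4.15% lower, so 0 of 6 is near those shares. MMP14, the membrane-bound activator of pro-MMP2, read 7.15 in overexpression and 7.09 in knockdown, and its 4 probe sets differed by -0.05 to 0.05. MMP15, another membrane-type MMP, read 7.52 against 7.28, and its other probe set differed by -0.06. MMP24, also membrane-bound, had the widest gap of the group, 7.18 against 6.86, a difference of 0.32, while its other probe set, below background, read 4.97 on both arrays. MMP16, a further membrane-type enzyme, read 7.02 against 7.13. The 4 membrane-type MMPs among the members thus stayed well under 1.5-fold.

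MMP11, or stromelysin 3, a secreted enzyme cut by furin before release, held the same value of 6.86 on both arrays. Its second probe set past the filter differed by -0.08. The remaining 2 probe sets were below background in both states. MMP9, the gelatinase B that cuts denatured collagen and type IV collagen, read 6.30 against 6.40, at the edge of the filter. The other gelatinase, MMP2, was below background, at 5.31 and 5.25.

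The secreted MMPs of the chromosome 11 cluster were at or near background in both states. In the RefSeq gene order the cluster runs MMP7, MMP20, MMP27, MMP8, MMP10, MMP1, MMP3, MMP12 and MMP13, and 8 of these 9 genes were not above background on either array. MMP7, or matrilysin, a small secreted MMP of glandular epithelium, was the exception and read 5.89 in overexpression against 5.65 in knockdown, which is at least 1.03-fold. MMP1, the interstitial collagenase, read 4.10 and 3.94, MMP10, or stromelysin 2, 4.89 and 4.77, and MMP13, the collagenase 3, 4.38 and 4.10. No fold can be given for these 3, because both of their values are below the background level.

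Of the 7 ADAM genes, 5 passed the filter and ADAM17 alone was past 1.5-fold. Among all genes past the filter, 4.97% were higher by as much and 4.15% lower. ADAM17, the sheddase of TNF and of several EGF receptor ligands, read 11.01 in overexpression and 10.41 in knockdown, a 1.52-fold difference that placed it at rank 559 from the top of the 12061 genes. Its other 2 probe sets read 9.18 against 8.61 and 8.37 against 7.70. The differences of the 3 probe sets, 0.60, 0.57 and 0.67, lay close to one another. By its name suffix x, the one at 9.18 is of the kind that Affymetrix marks as open to cross-hybridization. The size sits at the 1.5-fold threshold, a log2 difference of 0.58, so that 1 of the 3 probe sets fell short of it.

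ADAM10, the related sheddase of Notch receptors and cadherins, was under the threshold on each of its 3 probe sets, though all were on the same side. The brightest read 12.97 against 12.69, or 0.28 apart. The next read 9.25 against 8.83 and the dimmest 9.21 against 8.69, with differences of 0.42 and 0.52. The dimmest also carries the suffix x. ADAM9, a further membrane sheddase, read 12.44 against 12.45, and its second probe set past the filter was higher by 0.25. ADAM15, an ADAM with an integrin-binding disintegrin domain, read 8.85 in both states and differed by 0.23 on its other probe set. ADAM8 held 6.71 on both arrays. ADAM12 and ADAM19 exceeded background on 1 probe set each and did not pass the filter. ADAM12 read 5.87 against 6.01, and ADAM19 read 6.11 on both arrays.

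The ADAMTS genes held the widest differences among the brightest probe sets past the filter. All 4 passed it, and overexpression was higher by at least 1.5-fold in 3 and lower by as much in 0. Of all genes past the filter, 4.97% were higher by as much and 4.15% lower. ADAMTS3, an aminopropeptidase that trims procollagens and activates VEGF-C, read 9.05 in overexpression against 7.64 in knockdown. This is a 2.66-fold difference, at rank 83 of the 12061 genes, and it rests on the only probe set of the gene. ADAMTS15, a secreted protease that cuts versican and aggrecan, read 10.34 against 9.28, a 2.08-fold difference at rank 181. Its second probe set read 5.86 against 5.59, at the background level, and therefore says little about the size.

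ADAMTS8, a proteoglycan-cutting family member, read 6.53 in overexpression and 5.78 in knockdown, and since the knockdown value was below background the difference is at least 1.60-fold. ADAMTS8 passed the filter only through the overexpression array, and its other 2 probe sets were below background on both. ADAMTS1, which cuts aggrecan and versican and takes part in ovulation, lay on the other side. It read 9.91 against 10.25, a difference of -0.34, and its second probe set differed by -0.27. The sizes of ADAMTS1 stayed under 1.5-fold.

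**Figure D2:**
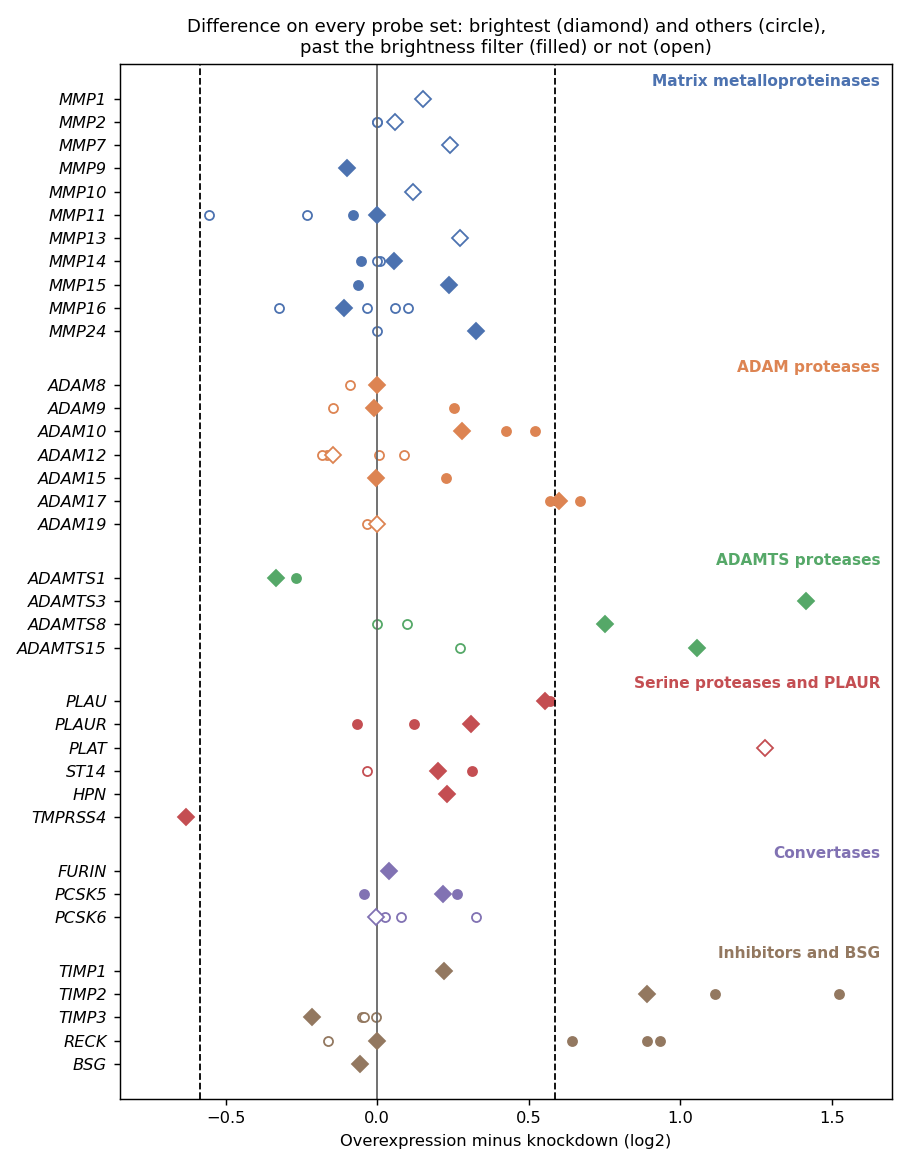
Log2 difference, overexpression minus knockdown, on each of the 86 probe sets of the 36 genes. Diamonds mark the brightest probe set of a gene and circles the others, filled where the higher value passed the filter. Dashed lines are 1.5-fold. All 3 probe sets of TIMP2 and of ADAM17 lie near or beyond the right-hand line, and for RECK 3 filled circles do while its diamond lies at 0.

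Among the serine proteases and the urokinase receptor, 4 of the 5 genes past the filter lay above 0 without reaching 1.5-fold. PLAU, the urokinase that activates plasminogen, came closest, with 10.71 in overexpression and 10.15 in knockdown, a 1.47-fold difference. Its second probe set read 8.59 against 8.02, a difference of 0.57 beside 0.55 on the first. PLAUR, the membrane receptor that holds urokinase at the cell surface, read 8.59 against 8.28, and its 3 probe sets differed by 0.31, 0.12 and -0.07. Ligand and receptor thus both lay above 0 on their brightest probe sets, and PLAUR had 1 of 3 on the other side.

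PLAT, the tissue plasminogen activator, read 6.37 in overexpression and 5.09 in knockdown on its only probe set. The values as deposited differ by 1.28, but only the overexpression value exceeded background, so the difference is at least 1.43-fold, and PLAT did not pass the filter. ST14, or matriptase, a membrane serine protease of epithelia, read 10.01 against 9.81, and its second probe set was higher by 0.31. HPN, or hepsin, a related membrane protease, read 6.99 against 6.76. TMPRSS4, a further membrane-anchored serine protease, was the only gene of the 27 at least 1.5-fold lower, with 5.995 in overexpression against 6.63 in knockdown, a 1.55-fold difference on its only probe set. TMPRSS4 passed the filter only through the knockdown array.

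The convertases, which remove the propeptides of membrane-type MMPs and ADAM proteases, lay close together on both arrays. FURIN read 7.48 in overexpression and 7.44 in knockdown. PCSK5 read 11.64 against 11.42, a difference of 0.22, and its other 2 probe sets differed by 0.26 and -0.04. PCSK6 read 6.04 against 6.05, above background and below the filter. None of the 3 was 1.5-fold apart, and of all genes past the filter 4.97% were higher by as much and 4.15% lower.

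Of the inhibitors, TIMP2 was higher in overexpression on every probe set. TIMP2, a secreted inhibitor that at low amounts also bridges MMP14 to pro-MMP2, read 12.98 against 12.09 on its brightest probe set, a 1.85-fold difference at rank 262 of the 12061 genes. The other 2 probe sets read 12.51 against 11.40 and 9.40 against 7.88, which are 2.16-fold and 2.88-fold. The brightest probe set therefore gave the smallest of the 3 sizes. TIMP1, the related inhibitor encoded on the X chromosome, read 12.83 against 12.61, a difference of 0.22. TIMP3, which binds to the matrix and inhibits ADAM17 as well as MMPs, read 6.84 against 7.05, a difference of -0.21, with its other 3 probe sets below background.

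RECK, a membrane-anchored inhibitor of MMPs, depended on the probe set. Its brightest held the identical value of 7.76 on both arrays and was not counted among the higher genes. Of the other 4, 3 passed the filter and read 8.13 against 7.20, 7.62 against 6.73 and 7.58 against 6.94, each at least 1.56-fold higher in overexpression. The last was below background, at 4.35 and 4.51. By the name suffix that Affymetrix gives to probe sets open to cross-hybridization, x, the brightest is of that kind and so is 1 of the 3 that differed. BSG, or basigin, a surface glycoprotein that induces MMPs in neighbouring cells, read 9.51 against 9.57.

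**Figure D3:**
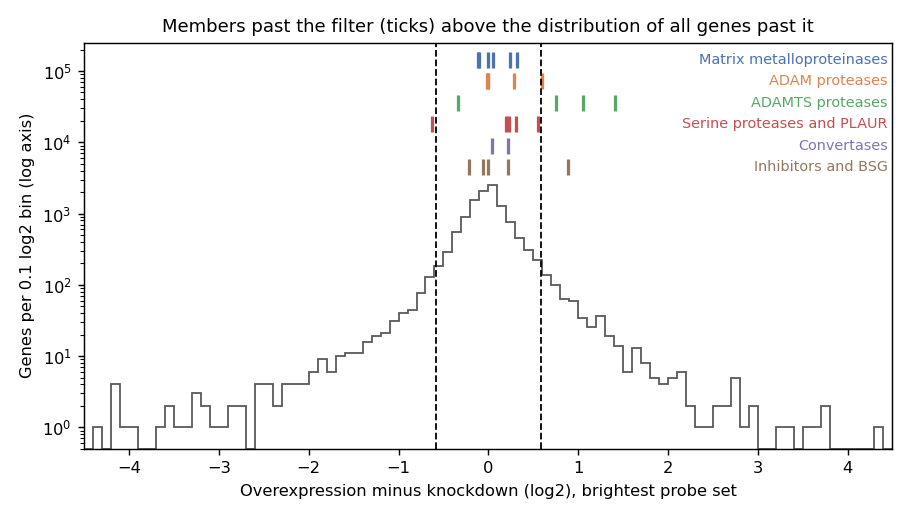
Log2 differences of the 12061 genes past the filter (line, genes per bin of 0.1, log axis, with empty bins at its foot) with the 27 protease genes as coloured ticks, by role, at arbitrary heights. Dashed lines are 1.5-fold. The MMP and convertase ticks all lie inside the lines, and 3 of 4 ADAMTS ticks lie to the right.

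Some of the higher genes lie among neighbours that were also higher. For each gene the median difference was taken over up to 20 nearest genes past the filter, 10 on each side of it along its chromosome in the RefSeq order. Near a chromosome's end there were fewer, 19 for ADAMTS15, 18 for ADAM8 and 17 for BSG among the 27 genes. ADAM17, on chromosome 2, had neighbours with a median of 0.48, of which 18 of 20 were above 0, so that its own difference of 0.60 exceeded theirs by 0.12. ST14, ADAMTS8 and ADAMTS15 lie together on chromosome 11, with 1 further protein-coding gene, ZBTB44, between ST14 and ADAMTS8. Their neighbours had medians of 0.44, 0.24 and 0.20. Relative to these, ADAMTS15 was still higher by 0.85 and ADAMTS8 by 0.51, and ST14 differed by -0.25. These neighbour sets overlap and include one another.

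ADAMTS3 and TIMP2 lay among neighbours near or below 0. The neighbours of ADAMTS3, on chromosome 4, had a median of -0.15, with 2 of 20 above 0, and those of TIMP2, on chromosome 17, had a median of 0.04. PLAU, on chromosome 10, had neighbours at 0.02. With each gene's difference taken relative to its neighbours, 3 of the 27 genes were past 1.5-fold on the side of overexpression in place of 5, namely ADAMTS3, ADAMTS15 and TIMP2, and the median of the 27 was 0.09 in place of 0.20. The part of the neighbourhood in the differences of ADAM17 and ADAMTS8 was not tested.

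**Figure D4:**
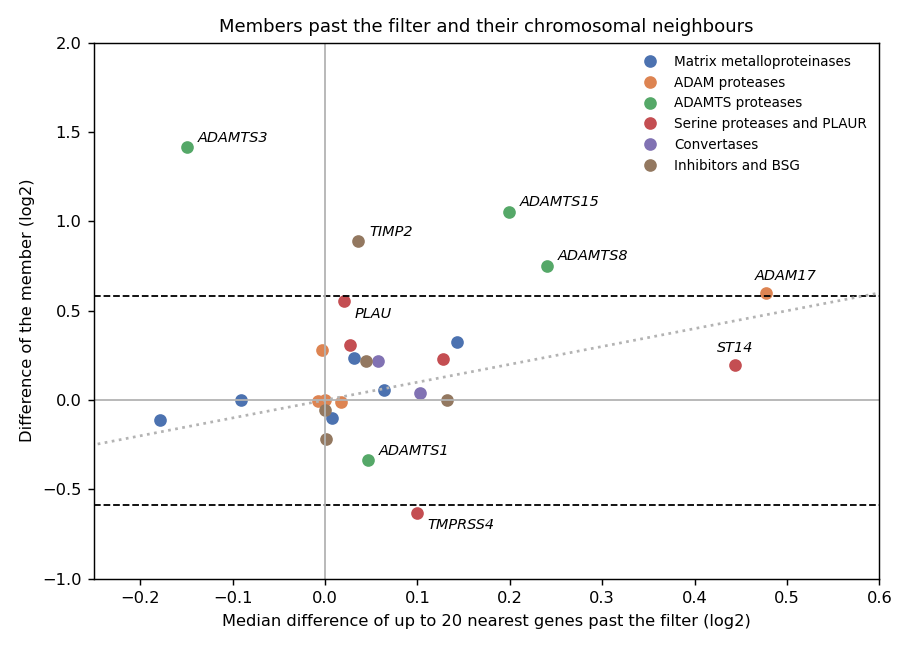
Log2 difference of each of the 27 genes past the filter against the median difference of its 20 nearest genes past the filter (19 for ADAMTS15, 18 for ADAM8 and 17 for BSG). The dotted line marks equality and the dashed lines 1.5-fold. ADAMTS3, ADAMTS15 and TIMP2 lie far above the dotted line, ADAM17 lies near it and ST14 below it.

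The rest of the protease system, a list of 82 further MMP, ADAM, ADAMTS, serine protease, convertase and inhibitor genes is given for the setting. Of these 74 were measured, 32 passed the filter and 26 were not above background on either array. Among the 32, a 1.5-fold or wider difference toward overexpression was seen in 2 and toward knockdown in 5, beside the 4.97% and 4.15% of all genes, and the median was 0.00. The higher pair were HPSE, the heparanase that cuts heparan sulfate (9.11 against 8.31), and SPINT1, an inhibitor of matriptase and hepsin (9.14 against 8.44). In both genes the other probe set past the filter stayed under 1.5-fold.

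Of the 5 lower genes, 3 encode serpins, inhibitors of serine proteases. SERPINA3, an inhibitor of chymotrypsin-like proteases, read 6.04 in overexpression against 7.55 in knockdown, a 2.86-fold difference on its only probe set past the filter. SERPINA3 passed the filter only through the knockdown array. SERPINE2, or protease nexin 1, which inhibits thrombin and urokinase, read 9.59 against 10.40, and SERPINA5, the protein C inhibitor, 6.82 against 7.47. DPP4, a membrane dipeptidyl peptidase, was lower on all 3 of its probe sets past the filter, with 11.20 against 12.14 on the brightest. BACE2, a membrane aspartyl protease, was at least 1.71-fold lower, since its overexpression value of 5.59 was below background. BACE2 passed the filter only through the knockdown array.

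Partners that escort ADAM10 and ADAM17 to the surface were next described. All 10 passed the filter, none was 1.5-fold higher and 1 was lower, beside the 4.97% and 4.15% of all genes, with a median of 0.03. That gene was TSPAN14, a tetraspanin that binds ADAM10, which read 8.77 in overexpression and 9.81 in knockdown. The difference was 2.05-fold, and it was past 1.5-fold on both TSPAN14 probe sets that passed the filter, while ADAM10 lay on the other side of 0.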

How the data were processed

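The authors deposited log2 values, 1 for each probe set on each array, and these were used unchanged. No source states the base of the logarithm, and 2 was inferred from the range. The submitters' processing notes name Partek 6.6, and how background was corrected and probes were normalized and summarized is not stated there. After sorting, the arrays nowhere differed by more than 0.05, so a shift common to most genes would not be visible. The number of arrays, 1 per group, limits the precision, and no depth applies.

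Each gene was read from its brightest probe set (highest mean of both arrays) among those annotated with exactly 1 symbol. A gene passed the filter when its higher value reached 6.40, the median of such probe sets. With 1 array per group no test was possible, so genes were counted at 1.5-fold. The background level, 5.85, is the brightest of 27 probe sets for Bacillus subtilis controls, and folds against dimmer values are lower bounds. All members are described. Of each further list, the up to 6 genes furthest apart, at 1.5-fold or more, are named, and SERPINA5, SDC1, NOTCH1 and COL18A1 were named after their values were seen. The members and lists were chosen with earlier results of these data known. Probe set combination, filter, scaling and threshold were varied. Averaging of probe sets above background, and subtraction of the neighbours' median, were chosen after seeing the data. The counting was tested on simulated data with Python 3.11.15, pandas 2.3.3 and numpy 2.4.6. Protein sequences were not used here.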

Additional observations from a re-analysis of the deposited data

How the results depend on the processing

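No difference past 1.5-fold changed sign in any alternative run, and ADAMTS8 stood at 0.00 on its second brightest probe set. The settings that moved a count of protease genes past 1.5-fold were these. With the second brightest probe set, 2 of 14 genes were higher and 0 lower. ADAMTS3 has no second probe set, those of ADAM17, ADAMTS8 and ADAMTS15 differed by less than 1.5-fold, and RECK joined the higher genes. At a 2-fold threshold the counts were 2 and 0. With the filter at the 75th percentile 0 were lower. Relative to their neighbours 3 were higher, with a median difference of 0.091. For the rest of the protease system, averaging the probe sets gave 1 higher and 3 lower, probe sets without a letter suffix gave 1 higher, the second brightest gave 0 higher and 3 lower, the 75th percentile gave 2 lower, and averaging probe sets above background gave 1 higher. The other 48 values of these counts and medians were within 1.5 times or 0.10 of those reported. No scaling changed a call among the 36 member genes. The sorted values of the arrays were already within 0.05 of each other, so scaling could change little and was no test of the calls. In the rest of the protease system, 6 genes in place of 5 were lower with arrays centred on the median and with quantile normalization. Single genes lost or gained the 1.5-fold call as follows. ADAM17 had 0.57 on its second probe set and 0.12 relative to its neighbours, ADAMTS15 had 0.27 on its second, ADAMTS8 had 0.28 with probe sets averaged and 0.51 relative to its neighbours, and RECK had 0.62 with probe sets above background averaged and 0.93 on its brightest without a letter suffix. With 1 array per group no spread between replicates could be measured. No paired analysis was possible because each group has 1 array.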

Other observations

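RNA of genes for proteins known to be shed by ADAM proteases, and for matrix proteins that MMPs and ADAMTS proteases cut, differed in both directions. Protein and shedding were not measured on these arrays. Of 30 genes for shed surface proteins, 28 were measured and 23 passed the filter. Of the 23, 5 were at least 1.5-fold higher and 3 lower in overexpression, beside 4.97% and 4.15% of all genes past the filter. Their median was 0.17. The higher ones were L1CAM, a neural adhesion molecule (at least 7.86-fold), N-cadherin or CDH2 (10.03 against 8.25), ICAM1 (9.31 against 8.22), E-cadherin or CDH1 (10.38 against 9.31) and SDC1, or syndecan 1 (11.005 against 10.25). The lower ones were the Notch ligand JAG1 (9.79 against 10.91), the EGF receptor ligand EREG (11.08 against 12.05) and NOTCH1 (8.40 against 9.06). L1CAM, with 8.83 against 5.60, passed the filter only through the overexpression array. L1CAM, EREG and NOTCH1 were each past 1.5-fold on 1 of their 2 probe sets past the filter, ICAM1 on 2 of 3 and JAG1 on 4 of 5. CD44 was not counted, with a difference of 0.20 on its brightest probe set. It was at least 1.5-fold higher on 6 of its 8 probe sets past the filter.

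Of 30 genes for matrix proteins, 27 were measured and 22 passed the filter. Of the 22, 4 were at least 1.5-fold higher and 3 lower, beside the same 4.97% and 4.15%, and the median was -0.02. The higher ones were THBS1, or thrombospondin 1 (11.22 against 9.27), the basement membrane linker NID1 (11.75 against 10.65), fibronectin or FN1 (7.69 against 6.95) and COL18A1, the precursor of endostatin (11.68 against 10.99). The lower ones were tenascin C or TNC (7.81 against 11.40), the laminin beta chain LAMB3 (8.78 against 10.76) and NID2 (7.28 against 8.16). NID1 and NID2, which are paralogs, thus lay on opposite sides. COL18A1 was past 1.5-fold on 1 of its 2 probe sets past the filter, NID1 on 2 of 3 and FN1 on 3 of 4.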
